A study of Mus musculus with 18 samples.

Results

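The NF-kB subunits and inhibitors described here were 10 of the 36172 genes in the deposited table, taken by their gene symbols, with earlier results of these data known. They were the Rel-domain subunits Rela, Rel, Relb, Nfkb1 and Nfkb2, the IkB genes Nfkbia, Nfkbib, Nfkbie and Nfkbiz, and the deubiquitinase Tnfaip3. Each was held in a single entry of the table, and all 10 were among the 14803 genes that passed the filter on low counts.

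The mice, about 3 months old, carried Cx3cr1-Cre/Ert2+ and NuTRAP+, and all had received tamoxifen 3 to 4 weeks before the injection, so that a GFP-tagged ribosomal protein was made in cells in which the Cx3cr1 promoter had driven the cre. Cx3cr1 is used by microglia and also by other brain macrophages, which can carry the tag too. Blood monocytes also use Cx3cr1, and the wait after tamoxifen was meant to let tagged ones be replaced. Each of 9 animals (6 female, 3 male) received lipopolysaccharide (LPS, a bacterial endotoxin, 5 mg/kg by intraperitoneal injection) or PBS, and the brain was collected after 24 h. The LPS animals were 4 females and 1 male, and the PBS animals were 2 females and 2 males. RNA came from the brain homogenate (input) and from the ribosomes pulled down with an antibody to GFP (positive fraction), and both were measured by poly(A) RNA sequencing.

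After PBS there were 4 input and 4 positive libraries, and after LPS there were 4 input and 5 positive libraries. Animal 271 had a nearly empty input library (1252 counts), which was left out of the main results. The 17 libraries used held 22968939 to 35123345 counts. Microglial markers checked the positive fraction. The summed level of 10 of them (Cx3cr1, P2ry12, Tmem119, Csf1r and others) was 252184 to 297692 normalised counts in the positive fraction after PBS and 200513 to 283397 after LPS, against 12495 to 17761 in the input libraries. Markers of other cells were also present in the positive fraction. Summed over 8 genes each, neuronal markers lay between 144855 and 238783 there and between 190101 and 224314 in input, and astrocyte markers lay between 133357 and 183221 and between 128978 and 152690.

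NF-kB is a family of dimeric transcription factors that wait in the cytoplasm bound to IkB proteins. Signals from receptors such as Toll-like receptor 4, which senses LPS, activate the IkB kinase complex, the IkB is degraded and the dimer enters the nucleus. NF-kB then switches on inflammatory genes together with several of its own subunits and inhibitors, which act as feedback, and in the brain microglia are among the cells best known for this response.

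Because several of these genes are textbook targets of NF-kB itself, their promoters were read for the kappaB consensus, the 10-base element that NF-kB dimers bind (GGG, a purine, any 2 bases, 2 pyrimidines and CC). Both strands were searched, and overlapping matches were counted separately. RefSeq promoter windows of 300 bases (250 before and 50 after the annotated start, build GRCm38.p6) were at hand for 7 of the 10 genes. Nfkb1, Relb and Nfkbiz had no window. Of the 32851 windows of all genes, 8.46% held a match, 1.22% held at least 2 and 0.186% held at least 3. Counted by gene, 9.55% of all genes had a match. Matches were found in windows of 5 of the 7 genes, Rel, Nfkb2, Nfkbia, Nfkbie and Tnfaip3, and none in those of Rela and Nfkbib. Those 7 genes had 10 windows, of which 7 held a match. A match is a description of the letters and not of binding.

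The 250 bases before the start are shown for Nfkbia and Nfkbie, IkB genes that each held 1 match but differed in the size of their response. They are read 5′ to 3′ on the gene's own strand, with the match in capitals. The Nfkbia window lay at chr12:55492648-55492897 on the minus strand and its match began 29 bases before the start. The Nfkbie window lay at chr17:45555450-45555699 on the plus strand and its match began 106 bases before the start.

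Nfkbia: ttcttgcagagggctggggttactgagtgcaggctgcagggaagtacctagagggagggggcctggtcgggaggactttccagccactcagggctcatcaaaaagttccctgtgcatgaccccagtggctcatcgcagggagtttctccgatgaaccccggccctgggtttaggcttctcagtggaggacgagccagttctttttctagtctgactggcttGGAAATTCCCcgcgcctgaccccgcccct
Nfkbie: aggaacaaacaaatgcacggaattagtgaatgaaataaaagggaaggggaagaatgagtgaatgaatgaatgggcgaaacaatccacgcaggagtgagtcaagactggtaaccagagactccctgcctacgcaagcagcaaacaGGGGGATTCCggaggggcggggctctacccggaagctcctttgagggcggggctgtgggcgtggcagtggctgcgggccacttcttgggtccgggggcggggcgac

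For Rel, Nfkb2 and Tnfaip3, whose first windows held several matches, only the 30 bases around each match are shown. The capitals of Rel and of the first Nfkb2 site cover 2 matches shifted by 1 base. The Rel site was at chr11:23771041-23771070 on the minus strand, the Nfkb2 sites were at chr19:46304689-46304718 and chr19:46304707-46304736 on the plus strand, and the Tnfaip3 sites were at chr10:19015516-19015545 and chr10:19015411-19015440 on the minus strand.

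Rel, first match 92 bases before the start: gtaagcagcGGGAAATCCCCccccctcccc
Nfkb2, first match 39 bases before the start: gatcgtcacGGGAATTCCCCccctcggggg
Nfkb2, match 11 bases before the start: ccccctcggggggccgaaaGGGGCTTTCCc
Tnfaip3, match 125 bases before the start: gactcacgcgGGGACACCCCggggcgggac
Tnfaip3, match 12 bases before the start: gtgactggaatttccatcGGAAATCCCCct

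Against this background, the first question was which of the 10 genes changed with LPS in the positive fraction. That fraction also held markers of other cells, so a change in it need not lie in the cells carrying the tag. All 10 genes were higher after LPS in the positive fraction, from 1.45-fold for Rela to 15-fold for Nfkbiz. A gene was called changed at a Benjamini-Hochberg adjusted p under 0.05 over all genes tested (edgeR's quasi-likelihood test) and a rise or fall of more than 25% in fold. By this rule 10 of the 10 genes were called higher, where 19.0% of all genes tested were called higher and 14.9% lower. For all 10, each LPS library lay above each PBS library, a pattern seen for 17.2% of all genes. The median log2 fold change of the 10 genes was 1.15, against 0.01 over all genes. In bulk samples, a change in RNA per cell and a change in the number of cells of a type cannot be told apart.

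Input gave a smaller list. There 6 of the 10 genes were called higher after LPS (Rela, Relb, Nfkb2, Nfkbia, Nfkbiz and Tnfaip3), where 7.16% of all genes tested were called higher and 5.26% lower. The groups did not overlap for 7 of the 10, those 6 and Nfkb1, against 12.7% of all genes. The median log2 fold change was 0.48 for the 10 genes and 0.00 for all genes. Without animals 506 and 507, 2 of the 10 were called in input, Nfkb2 and Tnfaip3.

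**Figure D1:**
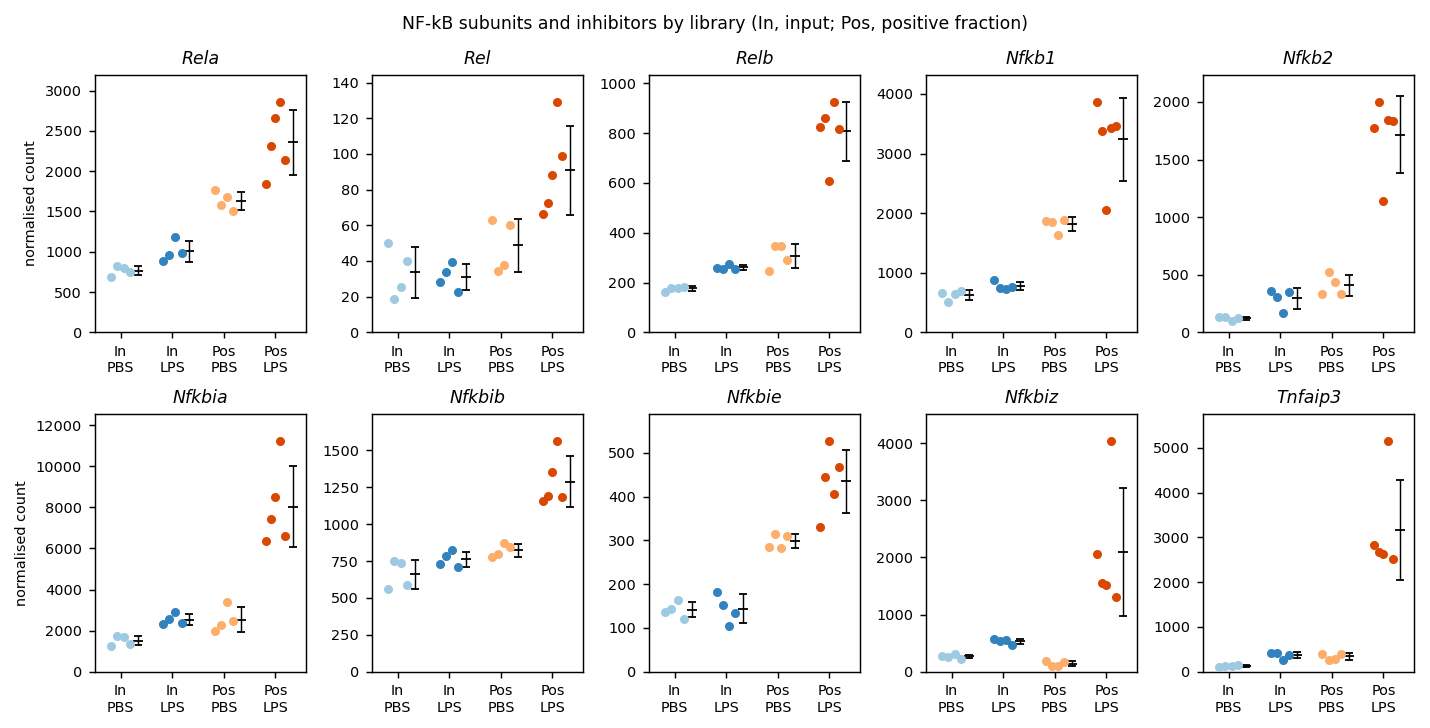
Normalised counts (vertical axes, starting at 0 and scaled for each gene) of the 10 genes in each of the 17 libraries, with the mean and SD of each group beside the points. In the positive fraction the 5 LPS libraries sit above the 4 PBS libraries for every gene, with the widest gaps for Nfkbiz and Tnfaip3.

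Values are given below in the order of animals 268, 272, 273 and 506 for PBS and 266, 267, 270, 271 and 507 for LPS, as counts scaled by DESeq's median-of-ratios size factors. LPS input has no value for animal 271.

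Rela encodes p65, the main transactivating subunit of the canonical dimer, and lies at chr19:5637490-5648130. Its positive-fraction counts were 1765, 1579, 1677 and 1502 after PBS and 1840, 2308, 2654, 2856 and 2133 after LPS. The lowest LPS library was only slightly above the highest PBS library, and the log2 fold change was 0.53 (SE 0.11, adjusted p = 0.00117). Input held 691, 819, 795 and 753 after PBS and 886, 963, 1188 and 985 after LPS. The rise there was 0.40 on the log2 scale (SE 0.12, adjusted p = 0.0353), and it was not called in 6 of the 27 alternative settings, 5 of them the omission of input library 268, 270, 273, 506 or 507.

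Rel encodes c-Rel, a subunit best known in lymphoid and myeloid cells, at chr11:23741729-23770970. The interval counted for it held 34.6% of its annotated exon bases (2584 of 7466), and its counts were the lowest of the 10 genes in all 4 groups. Rel stood at 63.2, 34.3, 37.8 and 59.9 in the positive fraction after PBS and at 66.2, 72.5, 88.1, 129 and 98.6 after LPS. The groups were adjacent without overlap, and the log2 fold change of 0.90 (SE 0.29, adjusted p = 0.0195) was not called without animals 506 and 507 (adjusted p = 0.0526), or without positive library 271 (0.0539), 272 (0.0712) or 273 (0.0607). Input held 50.1, 18.6, 25.6 and 40 after PBS and 28, 34, 39.4 and 22.7 after LPS. The input groups overlapped, with a log2 difference of -0.12 (SE 0.32, adjusted p = 0.842).

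Relb encodes RelB, the partner of p52 in the non-canonical dimer, at chr7:19606222-19629438. After PBS its positive-fraction counts were 246, 347, 346 and 289, and after LPS they were 824, 861, 608, 924 and 816. Every LPS library was well above the PBS range, and the log2 fold change was 1.39 (SE 0.13, adjusted p = 1.46e-07). In input, 163, 179, 180 and 183 after PBS stood against 258, 254, 275 and 255 after LPS. Both input groups were tight and apart, with a log2 increase of 0.56 (SE 0.13, adjusted p = 0.00776), though without animals 506 and 507 the adjusted p was 0.0572.

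Nfkb1 encodes p105, the precursor of p50, the usual partner of p65. It lies at chr3:135584655-135691547. Positive-fraction counts were 1864, 1858, 1639 and 1892 after PBS and 3863, 3384, 2048, 3429 and 3467 after LPS. Animal 270 fell close to the PBS libraries while the other LPS animals were far above them. The log2 fold change was 0.84 (SE 0.14, adjusted p = 0.000109). Input counts were 655, 517, 648 and 702 after PBS and 884, 751, 722 and 758 after LPS. They did not overlap, yet the log2 difference of 0.30 (SE 0.15, adjusted p = 0.186) did not pass.

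Nfkb2 encodes p100, which acts as an inhibitor of RelB and is cut to p52 in the non-canonical arm. It lies at chr19:46304737-46312090, and the kappaB matches shown above are in the bases just before that start. Its other promoter windows overlap and held matches at 2 further positions. Nfkb2 counts were 330, 523, 441 and 335 in the positive fraction after PBS and 1770, 1998, 1137, 1842 and 1835 after LPS. The LPS libraries were all far above the PBS libraries, with animal 270 again the lowest, and the log2 fold change of 2.07 (SE 0.21, adjusted p = 6.55e-07) was the largest of the subunits. Input values were 130, 135, 102 and 124 after PBS and 362, 311, 165 and 350 after LPS. The log2 fold change in input was 1.27 (SE 0.23, adjusted p = 0.000836), and animal 270 was the lowest LPS animal in that fraction too.

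Scaled by gene length, the subunits changed in their proportions. In the positive fraction, normalised counts per kb ran from Rela (602 ± 42.3, SD, n = 4) through Nfkb1 (440 ± 28.4), Relb (139 ± 22.2) and Nfkb2 (127 ± 28.8) to Rel (18.9 ± 5.74) after PBS. Relb and Nfkb2 overlapped in this order and the other neighbours did not. After LPS the levels per kb were 871 ± 150 (SD, n = 5) for Rela, 787 ± 168 for Nfkb1, 533 ± 104 for Nfkb2, 366 ± 53.8 for Relb and 35.2 ± 9.65 for Rel.

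Each of Rela, Nfkb1, Nfkb2 and Relb then overlapped with its neighbour in this order, and only Rel stood apart. Nfkb2 made up 9.51% ± 1.97 of the summed subunit level per kb after PBS and 20.4% ± 2.51 after LPS, and Rela 45.3% ± 2.74 and 34.0% ± 7.43. The ratio of Nfkb2 to Nfkb1 per kb was 0.226 to 0.36 in the PBS libraries and 0.586 to 0.755 in the LPS libraries, with no overlap. In input the same ratio was 0.2 to 0.335 after PBS and 0.292 to 0.591 after LPS, with animal 270 inside the PBS range.

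**Figure D2:**
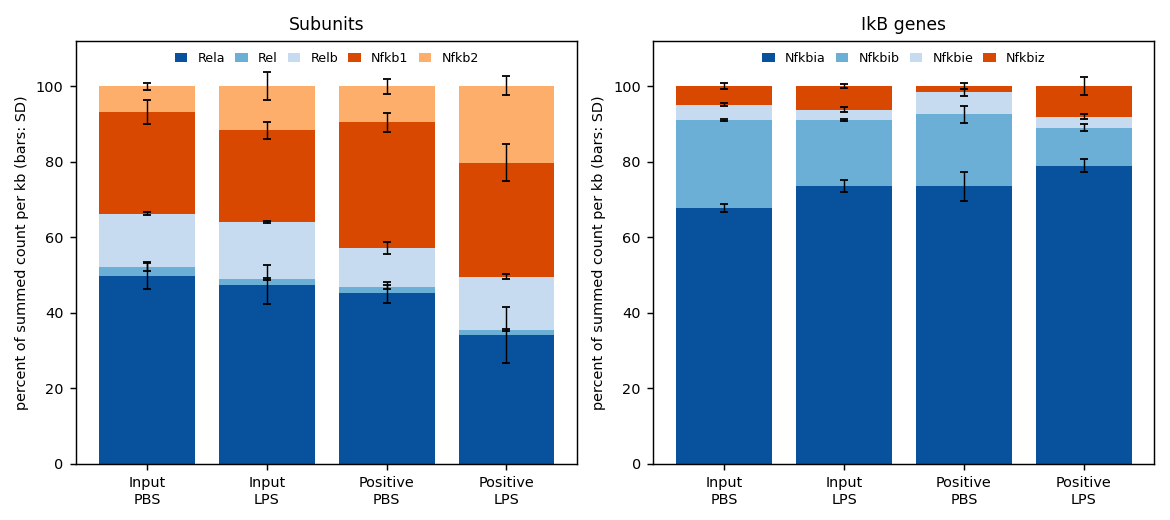
Share of each gene in the summed normalised count per kb of the 5 subunits (left) and of the 4 IkB genes (right), as mean percent with SD bars for 4 to 5 libraries per group. Nfkb2 takes 9.51% of the subunits in the positive fraction after PBS and 20.4% after LPS, and Nfkbiz takes 1.73% and 8.1% of the IkB genes.

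Nfkbia encodes IkBa, the rapidly resynthesised inhibitor that carries p65 out of the nucleus, at chr12:55489409-55492647. It was the most abundant of the 10 genes per kb in all 4 groups. Positive-fraction counts were 1996, 2296, 3405 and 2463 after PBS and 6378, 7448, 8500, 11208 and 6593 after LPS. No PBS library reached the lowest LPS library, and the log2 fold change was 1.66 (SE 0.17, adjusted p = 6.41e-07). In input the counts were 1264, 1714, 1695 and 1363 after PBS and 2334, 2549, 2887 and 2382 after LPS. The input groups were also apart, at a log2 increase of 0.75 (SE 0.17, adjusted p = 0.00699), with an adjusted p of 0.0568 without animals 506 and 507.

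Nfkbib encodes IkBb, a slower-turning inhibitor, at chr7:28758251-28766524. Its positive-fraction levels were 775, 799, 873 and 847 after PBS and 1160, 1190, 1352, 1561 and 1184 after LPS. The separation was complete but small, at a log2 increase of 0.65 (SE 0.11, adjusted p = 0.000121). Input levels were 561, 752, 736 and 590 after PBS and 732, 781, 822 and 711 after LPS. These overlapped, with a log2 difference of 0.21 (SE 0.11, adjusted p = 0.246).

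Nfkbie encodes IkBe, an inhibitor that holds p65 and c-Rel dimers, at chr17:45555716-45563168. Counts of 285, 314, 283 and 311 in the positive fraction after PBS compared with 331, 444, 526, 405 and 468 after LPS. The PBS and LPS ranges nearly met, at a log2 increase of 0.54 (SE 0.15, adjusted p = 0.00882) against 1.66 for Nfkbia, the other IkB gene whose promoter is shown above. Input counts of 137, 144, 163 and 121 after PBS overlapped with 183, 153, 105 and 135 after LPS. The log2 difference there was 0.03 (SE 0.17, adjusted p = 0.933).

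Nfkbiz encodes IkBz, an atypical nuclear IkB that works as a cofactor for a subset of secondary NF-kB targets rather than as a cytoplasmic inhibitor. It lies at chr16:55811377-55838641. The positive fraction held 180, 96.1, 108 and 176 normalised counts after PBS and 2051, 1554, 1512, 4028 and 1314 after LPS. Even the lowest LPS animal was far above all PBS animals, and animal 271 was well above the others. The log2 fold change of 3.90 (SE 0.31, adjusted p = 2.59e-08) was the largest among the 10 genes. In input, 283, 252, 301 and 227 after PBS compared with 572, 539, 551 and 461 after LPS. The input groups did not overlap, and the log2 fold change was 1.00 (SE 0.28, adjusted p = 0.0244), which was not called without animals 506 and 507 (0.0806) or without input library 266 (0.0585), 270 (0.0537), 272 (0.064) or 506 (0.0702).

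Tnfaip3 encodes A20, a ubiquitin-editing enzyme that limits signalling upstream of the IkB kinase, at chr10:19000910-19015410. Its positive-fraction counts were 404, 272, 281 and 400 after PBS and 2826, 2681, 2631, 5141 and 2508 after LPS. The LPS animals formed a tight set apart from animal 271, which was highest, and all were far above PBS. The log2 fold change was 3.22 (SE 0.23, adjusted p = 5.8e-09). Input counts were 108, 137, 126 and 157 after PBS and 424, 415, 270 and 380 after LPS. This was the largest change of the 10 genes in input, at 1.5 on the log2 scale (SE 0.23, adjusted p = 0.000191), with animal 270 lowest.

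Per kb, the IkB genes in the positive fraction after PBS stood at 1610 ± 385 (SD, n = 4) for Nfkbia, 410 ± 22.1 for Nfkbib, 123 ± 6.76 for Nfkbie and 36.1 ± 11.3 for Nfkbiz, with no overlap between neighbours. Tnfaip3 lay between Nfkbie and Nfkbiz at 73.8 ± 15.8. After LPS the levels were 5086 ± 1246 (SD, n = 5) for Nfkbia, 687 ± 243 for Tnfaip3, 641 ± 84.5 for Nfkbib, 539 ± 288 for Nfkbiz and 180 ± 30 for Nfkbie. Tnfaip3, Nfkbib and Nfkbiz then overlapped with each other, so the order of those genes was not resolved. The summed level of the 4 IkB genes over that of the 5 subunits was 1.64 ± 0.314 after PBS and 2.5 ± 0.562 after LPS. The ranges, 1.35 to 2.06 and 2.03 to 3.11, overlapped slightly. In input this ratio was 2.49 ± 0.357 after PBS and 2.79 ± 0.194 after LPS, also with overlap.

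The second question was how each gene's normalised count in the positive fraction compared with that in input. This is a relative enrichment and not the share of a gene's RNA held by the tagged ribosomes. In PBS animals, 7 of the 10 genes were called higher in the positive fraction than in input and 1 was lower, where 21.0% of all genes tested were called higher and 18.8% lower. An alternative setting used all 18 libraries, the nearly empty one included, and tested 14215 genes. It moved the share of higher calls among all genes called from 52.8% to 37.5%. Under it 7 of the 10 genes were called higher and 1 lower. Nfkb2 had the largest log2 enrichment after PBS, 1.73 (SE 0.23, adjusted p = 7.34e-06), followed by Nfkb1 with 1.52 (SE 0.15, adjusted p = 1.36e-07) and Tnfaip3 with 1.36 (SE 0.23, adjusted p = 0.000117).

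Rela, Nfkbie, Relb and Nfkbia followed, with log2 enrichments of 1.09, 1.08, 0.80 and 0.75. Rel had a log2 difference of 0.53 (SE 0.32, adjusted p = 0.181) and did not pass. Nfkbib had 0.32 (SE 0.11, adjusted p = 0.0276), just under the fold threshold, and it was called in 10 alternative settings, among them the block on animal (0.33, adjusted p = 0.00353). For scale, the microglial markers had a median log2 enrichment of 4.32 and the endothelial markers one of 1.32, with 9 of 10 endothelial genes called higher. The medians were 0.03 for neuronal, -0.16 for astrocyte and -2.19 for oligodendrocyte markers.

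Nfkbiz went the other way. After PBS its log2 difference between the positive fraction and input was -0.93 (SE 0.30, adjusted p = 0.0172). Its normalised count was thus lower in the positive fraction than in the homogenate. The call was lost without positive library 272 (-0.78, adjusted p = 0.0621) or 273 (-0.83, adjusted p = 0.0545). Within animals, the ratio of positive to input was 0.36 to 0.776 in the 4 PBS animals and 2.74 to 3.58 in the 4 LPS animals with both fractions. Every PBS animal was below 1 and every LPS animal above it.

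In LPS animals all 10 genes were called higher in the positive fraction, where 27.6% of all genes were called higher and 25.8% lower. The log2 enrichment was 3.08 for Tnfaip3 (SE 0.22, adjusted p = 1.34e-09), 2.53 for Nfkb2 (SE 0.22, adjusted p = 1.72e-08), 2.06 for Nfkb1 (SE 0.14, adjusted p = 1.02e-09) and 1.98 for Nfkbiz (SE 0.27, adjusted p = 7.05e-06). The lowest was that of Nfkbib, 0.76 (SE 0.11, adjusted p = 9.39e-06). The median over the 10 genes was 0.94 after PBS and 1.65 after LPS, against -0.00 and -0.03 over all genes.

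Within single animals, the ratio for Tnfaip3 was 1.98 to 3.76 after PBS and 6.45 to 9.74 after LPS, and for Nfkbia it was 1.34 to 2.01 and 2.73 to 2.94. Neither gene's ranges overlapped between treatments. The ratio for Rela was 1.93 to 2.56 after PBS and 2.08 to 2.4 after LPS, so the LPS range lay within the PBS range. That for Nfkbie was 1.73 to 2.57 and 1.8 to 5.0, and the ranges overlapped.

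**Figure D3:**
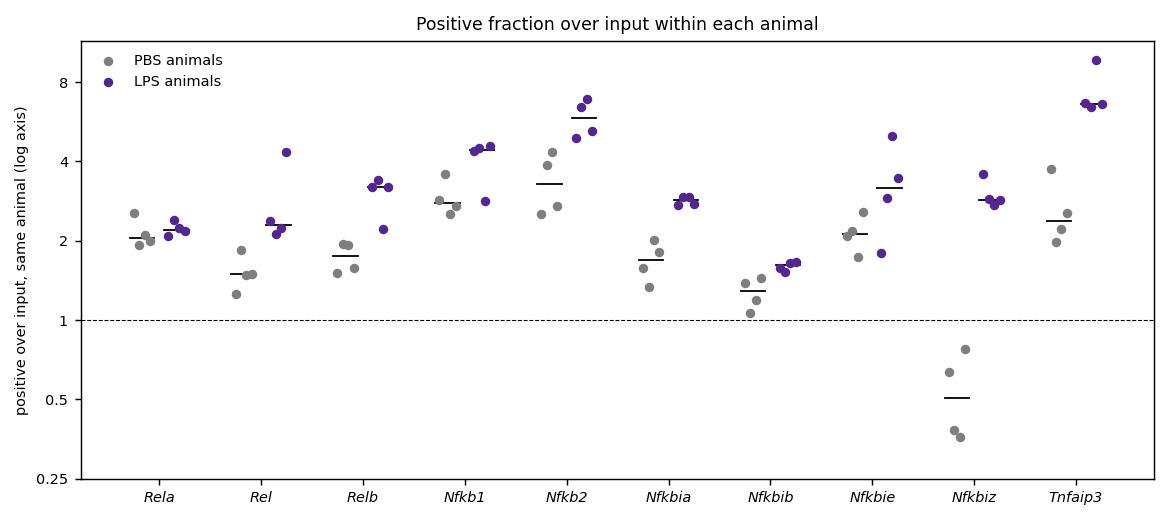
Ratio of the normalised count in the positive fraction to that in input of the same animal (log axis), for 4 PBS and 4 LPS animals, with lines at the medians and a dashed line at 1. Nfkbiz lies at 0.36 to 0.776 in PBS animals and at 2.74 to 3.58 in LPS animals, while Rela lies at about the same ratio in both.

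The third question was whether the response to LPS differed between the fractions. The difference (the log2 fold change in the positive fraction less that in input) was tested as an interaction. It was called for 4 of the 10 genes, all with the larger rise in the positive fraction, where 5.47% of all genes tested were called in that direction and 1.43% in the other. The difference was 2.91 for Nfkbiz (SE 0.40, adjusted p = 0.00025), 1.72 for Tnfaip3 (SE 0.31, adjusted p = 0.0021), 0.91 for Nfkbia (SE 0.24, adjusted p = 0.0262) and 0.83 for Relb (SE 0.18, adjusted p = 0.00796).

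For the other 6 genes the difference did not pass, with estimates of 0.14 for Rela to 1.02 for Rel and adjusted p-values between 0.107 and 0.719. Nfkb2 had a difference of 0.80 (SE 0.31, adjusted p = 0.139), which was called with animal as a fixed block (0.82, adjusted p = 0.00838). Nfkb1 had 0.53 (SE 0.20, adjusted p = 0.131), called without positive library 270 (0.66, adjusted p = 0.00343). Without animals 506 and 507, Nfkbiz and Tnfaip3 were the genes called. The call for Nfkbia was lost in 8 settings, 7 of which left out 1 library (266, 272, 273 or 507 of input, or 268, 272 or 506 of the positive fraction), with adjusted p-values of 0.0516 to 0.123.

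**Figure D4:**
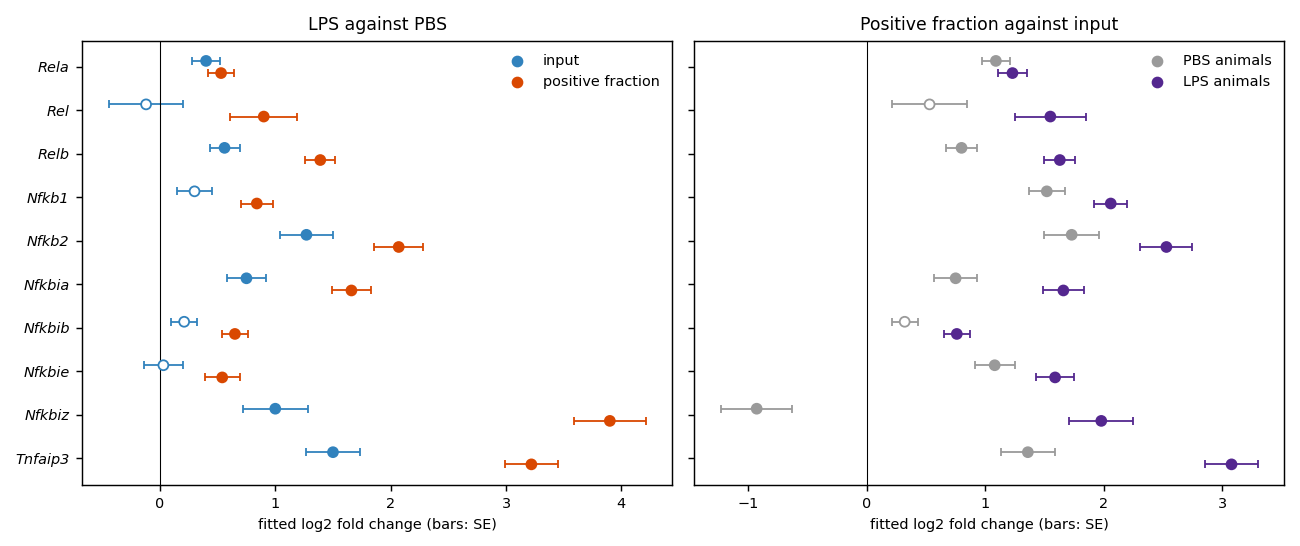
Fitted log2 fold changes with SE bars for LPS against PBS (left, in input and in the positive fraction) and for the positive fraction against input (right, in PBS and in LPS animals). Filled points were called and open points were not, and Nfkbiz moves from -0.93 in PBS animals to 1.98 in LPS animals on the right.

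Animals 270 and 271 stood apart in several of these genes. In the positive fraction after LPS, animal 270 was lowest for Nfkb1, Nfkb2 and Relb, and animal 271 was highest for Rela, Rel, Relb, Nfkbia, Nfkbib, Nfkbiz and Tnfaip3. Neutrophil markers were read beside them. The summed level of 10 neutrophil markers in the positive fraction was 140 to 327 after PBS and 431 to 1155 after LPS, with animal 270 at 431 and animal 271 at 910. In input it was 469 to 851 after PBS and 769 to 1673 after LPS, where animal 270 at 769 lay within the PBS range. In the positive fraction Cxcr2 made up most of this sum after PBS, at 111 to 179, and stood at 110 to 187 after LPS.

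Of the 6 neutrophil markers tested, 5 were called higher after LPS in each fraction, at medians of 2.30 (positive) and 1.94 (input) on the log2 scale, and 2 of the 10 listed were at 0 in all positive libraries of either treatment. Monocyte markers did not move together. Of 3 tested in the positive fraction, 1 was called higher after LPS and 1 was called lower. Their summed level (5 genes) in the positive fraction was 181 to 276 after PBS and 272 to 628 after LPS, lowest after LPS in animals 270 (272) and 271 (288). Within it, Ms4a4c went from 18.1 to 41.4 up to 99.2 to 364, while Ccr2 went from 30.5 to 59.9 down to 3.31 to 15.8. Of 6 border macrophage markers, 4 were called lower after LPS in the positive fraction, with a median log2 fold change of -1.10 and sums of 4773 to 9456 after PBS and 3401 to 5674 after LPS. Of 10 microglial markers, 2 were higher and 4 lower, with a median of -0.22. The shares over all genes were 19.0% higher and 14.9% lower in the positive fraction, and 7.16% higher in input.

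Markers of other brain cells also differed with LPS. In input, the summed endothelial markers were 2798 to 4136 after PBS and 4436 to 6164 after LPS, without overlap, and 3 of 10 were called higher and 1 lower. Summed oligodendrocyte markers there were 107736 to 168645 after PBS and 69614 to 98905 after LPS, and 6 of 8 were called lower. Over all genes tested, 7.16% were called higher and 5.26% lower in input, and 19.0% and 14.9% in the positive fraction. Of 8 neuronal markers, 5 were called lower after LPS in the positive fraction, and of 10 endothelial markers 2 were higher and 3 lower. The part of these cells in the changes of the 10 genes was not tested.

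Other genes of the pathway were read from lists of 53 genes, of which 50 were tested. The positive fraction had 22 called higher after LPS and 3 called lower, and input had 9 and 0. The median log2 fold changes were 0.18 and 0.08. Of 7 other IkB proteins and Rel-associated regulators, 4 were called higher in the positive fraction and 1 in input. Nfkbid and Pdlim2 rose by log2 fold changes of 1.18 and 0.71 in the positive fraction, after Bcl3. Bcl3, a nuclear IkB that binds p50 and p52 dimers, went from 55.9 ± 12.6 to 580 ± 130 normalised counts in the positive fraction (log2 fold change 3.38, SE 0.26, adjusted p = 1.61e-08) and from 19.3 ± 7.4 to 218 ± 62.4 in input (3.49, SE 0.29, adjusted p = 2.17e-07). Its difference between fractions was -0.11 (SE 0.36, adjusted p = 0.911), where Nfkbiz, the other strongly raised nuclear IkB, had 2.91.

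Among 11 kinases of the IkB kinase and NIK arms, 4 were called higher in the positive fraction and 3 in input. Ikbke, a non-canonical IkB kinase, went from 23.8 ± 5.59 to 1032 ± 514 in the positive fraction (log2 fold change 5.43, SE 0.48, adjusted p = 9.35e-08), and Map3k8, a kinase released from p105, from 77.4 ± 35.6 to 531 ± 173 (2.77, SE 0.27, adjusted p = 3.49e-07). Chuk, which encodes IKKa, had a log2 increase of 0.52 (SE 0.14, adjusted p = 0.00619). The other core subunits did not pass, with 0.14 for Ikbkb (SE 0.10, adjusted p = 0.24) and 0.09 for Ikbkg (SE 0.07, adjusted p = 0.306). Ikbkb and Ikbkg were named after their values were seen.

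Of 13 adaptors tested, 9 were higher and 2 lower in the positive fraction, and 2 were higher in input. The shares over all genes were 19.0% higher and 14.9% lower in the positive fraction, and 7.16% higher in input. Traf1, Birc3 and Ripk1 rose by log2 fold changes of 2.22, 2.03 and 0.91 in the positive fraction. Card10, a scaffold protein of the adaptor list, stood at -0.42 on the log2 scale (SE 0.17, adjusted p = 0.0492). Of 14 ubiquitin regulators tested, 5 were higher in the positive fraction and 3 in input. They included Tnip1 and Tnip2, partners of A20, with log2 fold changes of 0.85 and 1.00 in the positive fraction, and Usp18, with 2.13. Of 5 subunits of the ligase that marks IkB for degradation, Btrc alone was called and was lower (-0.54, SE 0.10, adjusted p = 0.000214).

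Target genes of the pathway were read from a separate list. Of 30 textbook NF-kB target genes listed, 28 were tested. Of these, 26 were called higher in the positive fraction and 19 in input, with median log2 fold changes of 2.37 and 1.75. Of all genes tested, 19.0% and 7.16% were called higher. The difference between fractions was called for 3 of the 28, all with the larger rise in the positive fraction. For all genes tested, 5.47% were called in that direction and 1.43% in the other. Ccl5 and Lcn2 rose in the positive fraction by log2 fold changes of 6.98 (SE 0.32) and 6.30 (SE 0.33). In input they rose by 3.55 and 5.48. Their difference between fractions was called for Ccl5 (3.43, adjusted p = 0.000112) and not for Lcn2 (0.82, adjusted p = 0.238). Sele, an endothelial adhesion molecule, was also named by the rule. After PBS it had 3 counts in all over the 4 positive libraries and 11 over the 4 input libraries, so no fold is given. In the positive fraction it was at 0 to 1.9 normalised counts after PBS and at 29.7 to 103 after LPS. In input it was at 0 to 5.72 and at 19.7 to 127.

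Finally, the genes whose pattern was most like each of the 10 were sought among the 12608 genes averaging 100 normalised counts or more, by Pearson's r of log2 values over the same 17 libraries, which share animals and treatment. The closest gene was Cxcl16 for Nfkb2 (r = 0.991), Tnip1 for Relb (0.990), Plin2 for Tnfaip3 (0.990), Rap1b for Nfkb1 (0.988), Ufc1 for Nfkbib (0.988), Dazap2 for Rela (0.986), Psmd3 for Nfkbia (0.984), Mob3a for Nfkbie (0.981), Zcchc9 for Nfkbiz (0.975) and Api5 for Rel (0.923). The second closest genes were Tagln2, Mapkapk2, Niacr1, Rrbp1, Rab4b, Usp39, Rab4b, Itgb3, Sdc4 and Mta2 in the same order, with r of 0.917 to 0.990. No gene of the 10 appeared among these closest and second closest genes. Rel, which averaged under 100 normalised counts, could not appear. The libraries also share fraction, so differences between the groups enter r.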

How the data were processed

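Poly(A) RNA libraries were made by the authors with a directional kit from input and positive-fraction RNA of the same animals, then trimmed, aligned to mm10 and quantified per gene with Strand NGS. The deposited estimated counts were used here (81.2% of the counts above 0 were not whole). The deposited table also holds log2 values made by the authors, which were not used. DESeq is named in the submitters' processing notes.

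Counts were rounded, scaled by DESeq's median-of-ratios size factors over the 17 libraries and kept where every library of at least 1 group exceeded 20 normalised counts (14803 genes). edgeR 4.0.16 (glmQLFit, glmQLFTest, R 4.3.3) was fitted with 1 mean per group to all 17 libraries. The call threshold was 0.05 for the Benjamini-Hochberg adjusted p and 25% for the rise or fall in fold. Animal 271's nearly empty input library (1252 counts, 0 from the 10 genes) was used only in the alternative setting with all 18 libraries. Gene length was the annotated exon length within the counted interval (GENCODE vM21). DESeq2 1.42.0, limma 3.58.1, TMM scaling, other filters, sex as a term, blocks on animal and leaving out each library were tried. The procedure was tested on simulated data. The labels give the animal of each library, and the deviations of the 2 fractions of an animal from their group means correlated at 0.163 to 0.519 in all 8 animals with both.

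The 10 genes, the pathway lists and the markers were chosen with earlier results of these data known. All 10 genes were named. From each pathway list, the 3 genes with the largest rise and the 2 with the largest fall among those called in the positive fraction were named. One gene that this rule names is not reported here.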

Additional observations from a re-analysis of the deposited data

Results flagged for a closer look

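With 40 sets of values examined (10 genes in 4 groups), chance alone marks about 1 in 20. In 5 sets, 1 library lay far from the rest of its group. Nfkb1 after PBS in the positive fraction was at 1639 in animal 273 and at 1858 to 1892 in the others. Among the positive-fraction libraries after LPS, animal 270 was low, with Nfkb1 at 2048 against 3384 to 3863 and Nfkb2 at 1137 against 1770 to 1998. Animal 271 was high in the same group, with Nfkbiz at 4028 against 1314 to 2051 and Tnfaip3 at 5141 against 2508 to 2826.

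The response to LPS was larger in the positive fraction than in input for 4 genes by the interaction test. The difference in log2 fold change was 0.83 for Relb, 0.91 for Nfkbia, 2.91 for Nfkbiz and 1.72 for Tnfaip3. Their causes were not tested.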

How the results depend on the processing

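In the positive fraction, 9 or 10 of the 10 genes were called higher with LPS under every alternative run, and all 10 were higher than input in LPS animals under each. Calls in input depended more on which libraries were kept. Rela, Relb, Nfkbia and Nfkbiz lost their calls there when animals 506 and 507 were left out. Their log2 fold changes were then 0.40, 0.59, 0.73 and 0.99, against 0.40, 0.56, 0.75 and 1.00 in the main setting. Without animals 506 and 507, 2 of the 10 genes were called in input (1080 genes in all, against 1838), and 2 were called for the difference between fractions (323 genes in all, against 1020). With animal as a fixed block, which pairs the fractions of an animal, 1918 genes were called for that difference. The block also gained Nfkb2 for the difference and Nfkbib for enrichment after PBS, and changed no other call of the 10 genes.

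In input, 2 genes that did not pass changed sign with the setting. Rel had a log2 difference of 0.10 without animals 506 and 507 and 0.01 with animal as a random block, and -0.32 to 0.14 when single libraries were left out. Nfkbie had -0.01 without those animals and -0.01 with the random block, and -0.11 to 0.16 without single libraries. The causes were not tested. Rel, at 18.6 to 50.1 normalised counts in input, had the fewest counts and the largest SE of the 10 genes there (0.32).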

Other observations

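The PBS group held 2 females (animals 268 and 506) and 2 males (animals 272 and 273). In the positive fraction the sexes did not overlap for 6 of the 10 genes, 4 higher in females (Rel, Nfkb1, Nfkbiz and Tnfaip3) and 2 higher in males (Relb and Nfkb2), where 45.6% of all genes tested did not overlap in either direction. In input they did not overlap for 6 of the 10, Rel and Nfkb1 higher in females and Rela, Nfkbia, Nfkbib and Nfkbie higher in males, where 57.2% of all genes did not. These shares are close to those of all genes, and no difference between the sexes was tested.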
